A study of Mus musculus with 8 samples.

Results

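Loss of the autophagy gene Atg7 in the resting uterine stroma was examined by comparing 4 of the 8 libraries of a mouse study, chosen by their titles: 2 from mice with Atg7 deleted and 2 from controls, all given oil. The cells were labelled as uterine stromal cells, the connective tissue cells beneath the epithelium, and came from ovariectomized mice of a strain named C57BL/6-ICR. Control oil libraries came from Atg7f/f mice, in which the gene is flanked by recombination sites and intact. Deleted oil libraries came from Atg7f/f;Amhr2cre mice, labelled Atg7d/d, in which Cre is made from Amhr2, a receptor gene used by the mesenchyme of the female tract. The 4 libraries of the matching estradiol groups, 2 per genotype, entered the shared estimate of spread and served as a second look at the deletion. The controls carry the floxed alleles but no Cre, and no group had Cre alone, so Cre and deletion cannot be told apart. How the cells were separated, the oil volume, the time after injection, the age of the mice and the number of animals per library were not given in the sources used here. Whether different mice stand behind the libraries is not stated either, so each p-value reflects the spread between samples that may be technical replicates.

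Autophagy wraps cell contents in a membrane and delivers them to lysosomes for breakdown. ATG7 is the enzyme that activates the ubiquitin-like proteins of the pathway, ATG12 and the LC3 and GABARAP family, so that they can be joined to their targets. After ovariectomy, without ovarian hormones, the stroma is largely at rest, and estradiol acts on it through estrogen receptor alpha. The stroma makes collagens and other matrix proteins, supports the epithelium with secreted signals and holds resident macrophages and blood vessels.

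Control oil library 1 held 6924046 counts and library 2 held 5591905. Deleted oil library 1 held 6494804 and library 2 held 6172646. Reads were found for 15864, 15689, 15963 and 15779 gene symbols, in the same order. Levels are given as CPM, counts brought to a common library size with trimmed mean of M-values (TMM) factors. The reads come from the 3′ ends of transcripts and do not grow with transcript length, so levels of different genes can be set side by side without a length correction.

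Atg7, on chromosome 6 from 114643097 to 114860614 (mm10), had 22 and 32 reads in the control oil libraries and 21 and 33 in the deleted ones. These counts overlapped, and the fitted log2 fold change, deleted over control, was -0.09 ± 0.42 (SE; 95% interval -1.05 to 0.86). It turned to 0.26 without control oil library 2 and to 0.19 without deleted oil library 1. Reads at the 3′ end may lie outside the deleted segment, whose position is not stated, so the Atg7 count does not check the genotype. RNA of other cell types was also present, as described with the markers, and its share of the Atg7 reads was not tested. Amhr2, the gene that drives Cre, lies on chromosome 15 from 102445367 to 102454633. It had 20 and 13 reads in control and 2 and 11 in deleted stroma, a log2 fold change of -1.40 ± 0.93 with a 95% interval from -3.49 to 0.69. Both deleted libraries were below both control libraries, at counts too low for a firm value.

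No gene passed the threshold for the deletion in oil. Of 13347 genes with enough reads, 0 (percent called 0) had an adjusted p below 0.05 in edgeR's quasi-likelihood test, and the smallest adjusted p was 1. DESeq2 also called 0. At an unadjusted p below 0.05 edgeR counted 339 genes, 2.54% of those tested, 201 higher and 138 lower, and DESeq2 counted 212. Both counts are smaller than a threshold of 0.05 lets through on average when nothing differs, so neither is a sign of change. The edgeR count was 623 without control oil library 1, 1632 without control oil library 2, 511 without deleted oil library 1 and 194 without deleted oil library 2, again with 0 called. The fold changes below are therefore values, none of them past the test, and the words higher and lower place them without a claim of change.

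A simpler description counts genes for which the deleted libraries lay entirely on one side of the control libraries. Both deleted libraries were above both controls for 1727 genes, a background of 12.9%, and below them for 1542 genes, a background of 11.6%. Scaled by library totals instead, the split was 2136 higher and 1143 lower, and the median log2 fold change over all genes was 0.05 rather than -0.01. Few of the separated genes were far apart. Separation with a fitted difference of at least 2-fold was seen for 172 genes higher and 135 lower, and for 10 and 4 of the 8750 genes with a mean of at least 10 CPM in oil. The precision was moderate: the 95% interval lay within 2-fold in both directions for 7133 genes of that level, 81.5% of them.

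Libraries of a genotype differed from each other at least as much as libraries of different genotypes with the same number. Over the tested genes the median absolute log2 difference between library 1 and library 2 was 0.405 in control oil and 0.306 in deleted oil. Between control and deleted libraries it was 0.257 for the libraries numbered 1 and 0.232 for those numbered 2, but 0.407 for control library 1 against deleted library 2 and 0.323 for control library 2 against deleted library 1. More than 2-fold apart were 1995 genes in control oil, 14.9% of those tested, and 985 in deleted oil, 7.38%. Of the genes that far apart in both genotypes, 207 had library 1 above in both, 209 had library 2 above in both and 46 went opposite ways.

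**Figure D1:**
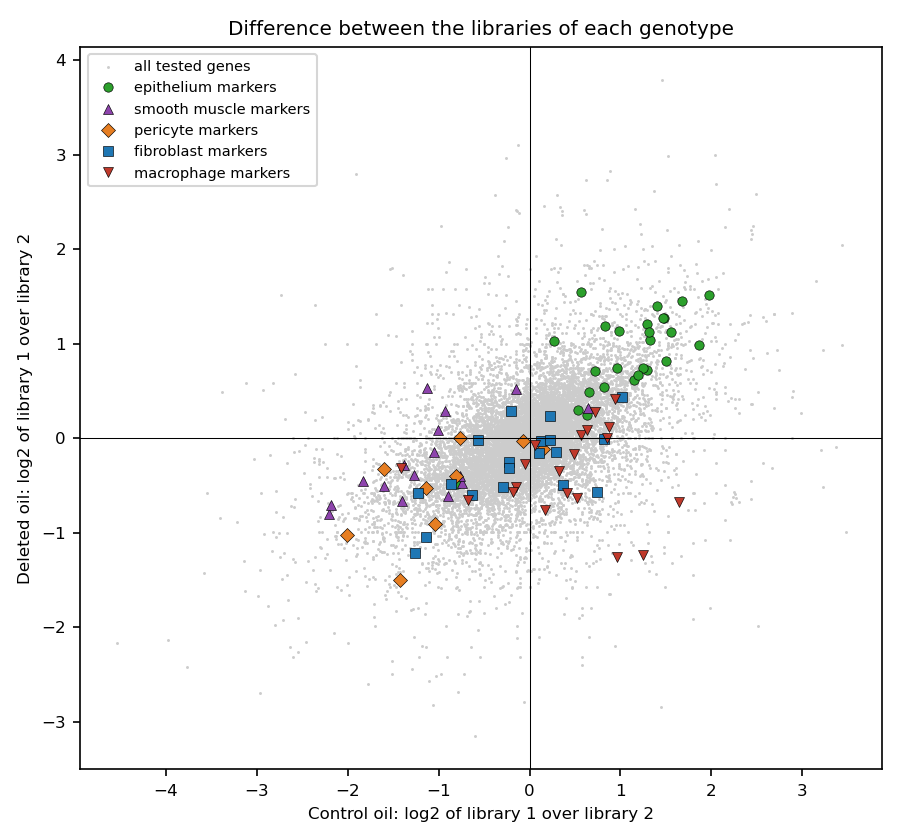
Log2 ratio of library 1 to library 2 in control oil (horizontal axis) and deleted oil (vertical axis) for the 13347 tested genes (grey points) and 5 marker lists (coloured symbols). Epithelium markers lie to the upper right, with medians of 1.22 and 1.01, and smooth muscle markers mostly to the left, with medians of -1.09 and -0.39.

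Genes of epithelium and muscle were prominent in this spread. Cdh1, the adhesion molecule E-cadherin of epithelia, stood at 4111 and 1044 CPM in the control oil libraries and at 2384 and 834 in the deleted ones. Cldn4, a tight junction protein, stood at 6414, 2324, 4233 and 1747 CPM in the same order. Library 1 of each genotype was thus the more epithelial one, and the genotypes overlapped. Acta2, smooth muscle actin, ran the other way, at 661, 1750.0, 1336 and 2110 CPM. Sprr2f, a cornified envelope gene of estrogen-exposed epithelium, stood at 116 and 10.4 CPM in control oil and 36.2 and 8.51 in deleted oil. Among growth control genes, Myc was low in library 1 of each genotype, at 18.3 and 22.9 CPM, and high in library 2, at 113 and 55.9. Id4, an inhibitor of helix-loop-helix factors, stood at 20 and 145 CPM in control and 43.0 and 98.5 in deleted stroma. In deleted oil alone, Iigp1, an interferon-induced GTPase, stood at 36.8 and 133 CPM, against 41.3 and 58.8 in control oil.

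The labelled cell type was checked against its markers. The 19 tested fibroblast markers summed to 2885 and 3317 CPM in control oil and 3489 and 4231 in deleted oil, and none of the listed fibroblast markers was at 0. The 26 epithelium markers summed to 19432 and 6667 CPM in control oil and 12158 and 5241 in deleted oil, more than the fibroblast markers in every library. The 16 smooth muscle markers summed to 7970 and 8951 CPM in control oil and 8908 and 9724 in deleted oil. Endothelium markers summed to 3126, 4274, 3589 and 3626 CPM and macrophage markers to 474, 378, 558 and 826. The epithelium and smooth muscle sums were thus both above the fibroblast sum in every library. These markers leave the label of stromal cells in doubt, and the word stroma here follows the label. The RNA therefore included that of several other cell types, and in bulk RNA fewer cells of a type and less RNA per cell cannot be told apart. Some markers were absent: Snap25 of neurons, and Adipoq, Plin1, Lep and Retn of fat cells, had no read in any oil library.

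**Figure D2:**
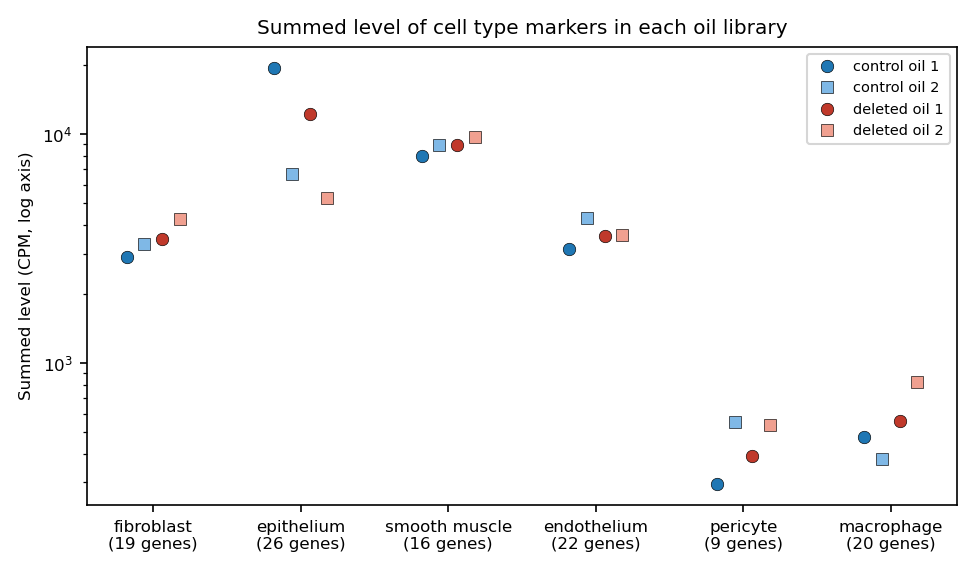
Summed level of each marker list (CPM, log axis) in each of the 4 oil libraries, 1 point per library. Fibroblast and macrophage sums are higher in both deleted libraries than in both controls. The largest member of the macrophage sum is the antigen presentation gene H2-Aa. It had 931 and 576 reads in control oil and 1323 and 2054 in deleted oil. H2-Ab1 had 428 and 338 reads in control oil and 535 and 906 in deleted oil, and Cd74 had 182 and 67 against 203 and 482. The class II genes thus weigh heavily in the macrophage sum, and whether it separates the genotypes without them was not tested. Lyz2 went the other way, at 279 and 283 against 155 and 232 reads. The epithelium sums overlap, with control at 19432 and 6667 and deleted at 12158 and 5241.

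Among the 12 genes with the smallest p-values on the higher side were secreted and matrix proteins such as Serpinf1, Dpt and Mfap4. Serpinf1, which encodes the secreted antiangiogenic factor PEDF, lies on chromosome 11 from 75409769 to 75422701 and stood at 9.47 and 10.3 CPM in control and 18.0 and 18.0 CPM in deleted stroma. The fitted log2 fold change was 0.87 ± 0.20 (SE), with an unadjusted p of 0.00185 and an adjusted p of 1 in edgeR. Dpt, dermatopontin, a matrix protein that binds decorin, lies on chromosome 1 from 164796644 to 164824266 and stood at 48.7 and 44.6 against 76.0 and 77.5 CPM, a log2 fold change of 0.72 ± 0.18. In both genes the genotypes were well apart and the libraries of a genotype close together, which the choice by no overlap and small p favours. Mfap4, a microfibril-associated protein, stood at 7.26 and 7.44 against 14.2 and 14.3 CPM. Scube1, a secreted and membrane-bound EGF domain protein, stood at 8.99 and 11.5 against 21.2 and 31.7 CPM, the deleted libraries being further from each other than the controls. Selm, a selenoprotein of the endoplasmic reticulum, stood at 37.4 and 54.2 against 75.7 and 99.3 CPM.

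Apod, a lipid-carrying lipocalin, stood at 7.57 and 11.2 CPM in control and 18.3 and 27.3 in deleted stroma, and Inmt, a methyltransferase of indole amines, at 13.4 and 11.2 against 30.0 and 33.9. Wisp1, a Wnt-induced matricellular protein, stood at 4.73 and 10.8 against 18.2 and 18.7 CPM, so its control libraries differed more than 2-fold. Lsp1, an actin-binding protein of leukocytes, was higher by 0.57 ± 0.16 on the log2 scale, Mia by 0.91 ± 0.24 and Pcdh17, a protocadherin, by 0.67 ± 0.20. The remaining gene of the 12 on this side was Cdk1, described with the cell cycle. These 12 had a median log2 fold change of 0.95.

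On the lower side the 12 genes were of varied roles. Plaur, the receptor of urokinase, lies on chromosome 7 from 24462484 to 24475968 and stood at 126 and 97.0 CPM in control and 71.8 and 41.8 in deleted stroma. Its log2 fold change was -0.97 ± 0.27 (95% interval -1.58 to -0.37), with an unadjusted p of 0.00545 and an adjusted p of 1 in edgeR. Edn1, the vasoconstrictor endothelin 1, lies on chromosome 13 from 42301476 to 42307990 and stood at 378 and 272 against 241 and 147 CPM, a log2 fold change of -0.74 ± 0.25. Neither gene overlapped between genotypes, but in each of them library 1 lay above library 2 in both genotypes. Rnd3, a small GTPase that loosens actin fibres, stood at 176 and 104 against 84.9 and 75.5 CPM, and Krt17, an epithelial keratin, at 42.1 and 31.5 against 25.6 and 18.9. Cyp26b1, which breaks down retinoic acid, stood at 109 and 91.5 against 68.9 and 38.3 CPM. Ahcyl2 had the smallest p of this side, at 16.6 and 17.3 against 9.17 and 7.56 CPM and a log2 fold change of -1.02 ± 0.28.

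The other 6 were Pprc1, a coactivator of mitochondrial genes, Rrs1, a ribosome assembly factor, Slc30a1, a zinc exporter, Cep78, a centrosome protein, Tctex1d2 and Scaf4. Their log2 fold changes ran from -0.93 for Cep78 to -0.54 for Slc30a1, and the 12 had a median of -0.74. Library 1 was above library 2 in both genotypes for 8 of these 12 and for 2 of the 12 genes on the higher side, against 33.9% of all tested genes. The epithelium markers had the same lean to library 1, and their part in these values was not tested.

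**Figure D3:**
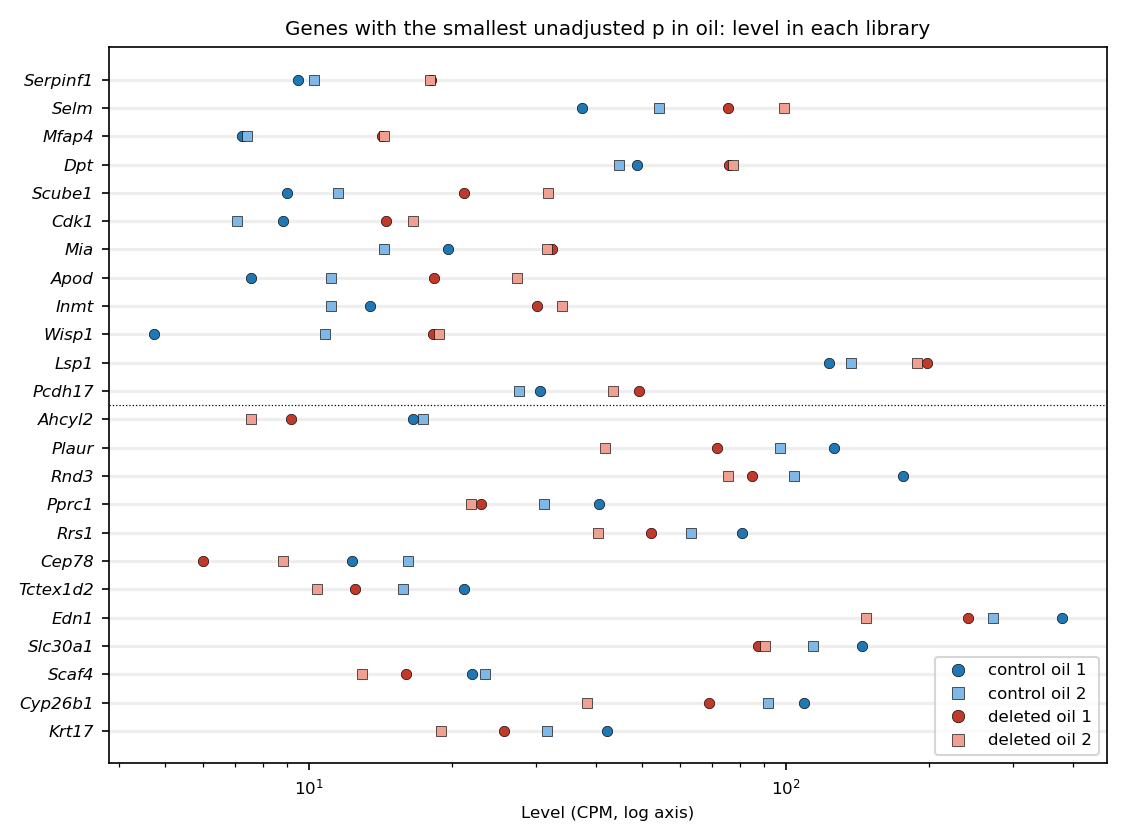
Level in each oil library (CPM, log axis) of the 12 genes on each side with the smallest unadjusted p among genes that averaged 10 CPM or more and separated the genotypes, with control in blue and deleted in red. Serpinf1, Mfap4 and Dpt have tight pairs of points, while Wisp1, Rnd3, Edn1 and Cyp26b1 are spread within a genotype.

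Fibroblast markers leaned higher in deleted stroma. Of 19 tested, 0 passed the test in either direction, and the fitted log2 fold changes ran from 0.01 to 0.96. In both deleted libraries 8 were higher (42.1%) and 0 lower, against 12.9% and 11.6% of all tested genes. The median was 0.41 against -0.01 for all genes. The median stayed between 0.14, without deleted oil library 2, and 0.63, without control oil library 2, when 1 oil library was left out. Clec3b, which encodes the plasminogen-binding protein tetranectin, lies on chromosome 9 from 123150946 to 123157432 and stood at 98 and 83.6 CPM in control and 176 and 178 in deleted stroma. Its log2 fold change was 0.96 ± 0.34. Pi16, a marker of adventitial fibroblasts, stood at 10.9 and 16.3 against 22.1 and 22.4 CPM, and Mfap5, a microfibril protein, at 19.7 and 16.8 against 35.4 and 30.1. Dcn, the collagen-binding proteoglycan decorin, was the most abundant of the genes named here from this list, at 1251 and 1023 against 1384 and 1526 CPM, a log2 fold change of 0.36 ± 0.18. The 4 genes did not overlap between genotypes, with Clec3b differing the most of them.

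The matrix list shared this lean. Of 55 tested genes, 0 passed, 13 were higher in both deleted libraries (23.6%) and 0 lower, beside 12.9% and 11.6% of all genes. The median log2 fold change was 0.23, ranging from 0.03 to 0.40 when 1 oil library was left out. Loxl1, a lysyl oxidase that cross-links elastin, stood at 6.15 and 7.44 CPM in control and 12.3 and 13.9 in deleted stroma, a log2 fold change of 0.95 ± 0.26. Postn, periostin of remodelling tissue, stood at 14.5 and 44.6 against 48.8 and 69.3 CPM. Adamts5, an aggrecan-cleaving protease, stood at 11.4 and 14.0 against 14.2 and 31.4 CPM. Postn and Adamts5 separated the genotypes narrowly, and the spread within a genotype was as wide as the step between them. Dcn stands in both the fibroblast and the matrix list. The fibroblast sum was higher in both deleted libraries, and whether the matrix genes moved with the share of fibroblast RNA was not tested.

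Macrophage markers also leaned higher. Of 20 tested, 0 passed, 9 were higher in both deleted libraries (45%) and 1 lower (5%), against 12.9% and 11.6% of all genes. The median log2 fold change was 0.45. It was 0.90 without control oil library 1 and 0.18 without control oil library 2. Aif1, the calcium-binding protein IBA1 of macrophages, stood at 5.36 and 2.83 CPM in control and 10.1 and 10.1 in deleted stroma, a log2 fold change of 1.29 ± 0.35. C1qa, a chain of the complement starter C1q made by tissue macrophages, stood at 36.4 and 23.4 against 53.6 and 50.3 CPM. C1qc, another chain, stood at 12.8 and 9.56 against 18.3 and 27.6 CPM. The single marker below both controls was Lyz2, the macrophage lysozyme, at 44.0 and 50.1 against 24.5 and 36.6 CPM, a log2 fold change of -0.62 ± 0.33. Lyz2 is named because it was the exception, after its values were seen.

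Part of the macrophage list presents antigen on class II molecules of the major histocompatibility complex, whose alpha and beta chains pair in the endoplasmic reticulum. H2-Aa, an alpha chain on chromosome 17 from 34282744 to 34287823, stood at 147 and 102 CPM in control and 209 and 324 in deleted stroma, a log2 fold change of 1.10 ± 0.35 (95% interval 0.32 to 1.88). H2-Ab1, its beta partner, stood at 67.5 and 59.8 against 84.6 and 143 CPM. Cd74, the invariant chain that escorts class II molecules, stood at 28.7 and 11.9 against 32.1 and 75.9 CPM. All 3 were highest in deleted oil library 2, and Cd74 of deleted library 1 lay close to control library 1. H2-DMb1, a chain of the peptide-loading factor, stood at 34.1 and 20.4 against 43.5 and 61.6 CPM. H2-Eb1, a further beta chain, did not follow, at 119.9 and 79.5 against 99.4 and 62.6 CPM, a log2 fold change of -0.30 ± 0.58 that became 0.067 without control oil library 1. H2-DMb1 and H2-Eb1 stand in no list and were added after their values were seen.

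Class II promoters share a Y box, and its core letters GATTGG were searched on both strands in the 100 bases from 115 to 16 upstream of the annotated start (RefSeq, GRCm38.p6). The 3 windows found for members of this group are shown to compare a gene whose libraries overlapped with genes whose libraries did not. Capitals mark the match, and in H2-Eb1 also a match on the other strand. H2-Aa lies at chr17:34287839-34287938 on the minus strand, H2-DMb1 at chr17:34153076-34153175 on the plus strand and H2-Eb1 at chr17:34305752-34305851 on the plus strand.
H2-Aa: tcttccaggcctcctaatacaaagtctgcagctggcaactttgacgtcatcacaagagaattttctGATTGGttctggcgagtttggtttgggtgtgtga
H2-DMb1: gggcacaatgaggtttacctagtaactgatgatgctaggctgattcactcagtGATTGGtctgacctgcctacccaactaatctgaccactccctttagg
H2-Eb1: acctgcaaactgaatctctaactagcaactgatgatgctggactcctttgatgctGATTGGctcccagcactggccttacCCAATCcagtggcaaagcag
Matches begin 49 bases upstream of the start in H2-Aa, 62 in H2-DMb1, and 60 and 35 in H2-Eb1. The letters occur in 8.74% of 32851 promoter windows of this length and place. H2-Eb1 holds them although its genotypes overlapped.

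Several cell cycle genes stood higher in deleted stroma in oil and lower in it after estradiol. Of 38 tested, 0 passed in oil, 12 were higher in both deleted libraries (31.6%) and 3 lower (7.89%), with a median log2 fold change of 0.12. The backgrounds in oil were 12.9% and 11.6%. After estradiol, where the backgrounds were 16% higher and 18.2% lower, 0 were higher in both deleted libraries and 27 were lower, with a median of -0.46. Cdk1, the kinase that drives mitosis, lies on chromosome 10 from 69335146 to 69352938 and stood at 8.83 and 7.08 CPM in control oil and 14.5 and 16.5 in deleted oil. The log2 fold change was 0.96 ± 0.25. After estradiol Cdk1 stood at 114 and 137 CPM in control and 67.8 and 95.3 in deleted stroma, a log2 fold change of -0.62 ± 0.22. The difference between these effects of the deletion was -1.58 ± 0.33, with an unadjusted p of 0.00103 in edgeR. No gene passed this test of the difference after adjustment (0 of 13347 in edgeR and in DESeq2, with 210 and 138 at an unadjusted p below 0.05).

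Top2a, the topoisomerase that untangles replicated DNA, repeated the pattern. It stood at 13.7 and 10.4 CPM in control oil and 19.8 and 20.6 in deleted oil, and at 88.1 and 104 against 62.6 and 75.9 after estradiol. E2f1, a transcription factor of S phase entry, stood at 4.26 and 4.43 against 8.22 and 7.25 CPM in oil, a log2 fold change of 0.83 ± 0.24, and overlapped after estradiol. Ccne1, cyclin E1, had 1.42 and 2.12 against 3.48 and 4.10 CPM in oil. Of the 12 members higher in oil, 8 were lower in both deleted libraries after estradiol: Cdk1, Top2a, Ccne1, Ccnb2, Cdc20, Tk1, Cdkn1c and Cdkn2c, the last 5 named after their values were seen. The 3 members lower in oil were Ccnb1, Aurka and Cdkn1a, also named after their values were seen, and all 3 were lower after estradiol too. Ccnb1 had only 8 and 6 reads in control oil and 6 and 4 in deleted oil. Over all genes 239 of 13347 were higher in oil and lower after estradiol in this way. The resting levels were low for most members, and leaving out 1 oil library moved the oil median between 0.09 and 0.27.

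Autophagy genes gave no common lean in oil. Of 22 genes of initiation and nucleation 3 were higher in both deleted libraries and 0 lower, with a median log2 fold change of -0.11. Of 18 conjugation genes, the step in which ATG7 works, 3 were higher and 0 lower, with a median of -0.01. The shares higher, 13.6% and 16.7%, stood beside 12.9% of all genes, and the shares lower beside 11.6%. None of the genes in these 2 lists passed the test. Leaving out 1 oil library moved the initiation median between -0.13 and 0.033 and the conjugation median between -0.14 and 0.14. Atg4c, a protease that processes LC3-like proteins, had 13 and 6 reads in control and 46 and 28 in deleted stroma, a log2 fold change of 1.88 ± 0.60, the highest of the list but one that rests on few reads. Gabarap, a substrate of the ATG7 reaction, stood at 352 and 419 against 437 and 466 CPM, a log2 fold change of 0.23 ± 0.17. Map1lc3b, the LC3B gene, overlapped at 269.6 and 312 against 296 and 328 CPM. It was named for its place in the pathway, after its values were seen.

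Among 16 receptors and cargo adaptors 6 were higher in both deleted libraries (37.5%) and 1 lower (6.25%), beside 12.9% and 11.6% of all genes. The median was 0.07, and 0 passed. Calcoco1, an adaptor for breakdown of endoplasmic reticulum, lies on chromosome 15 from 102706777 to 102722178 and stood at 51.1 and 52.4 CPM in control and 76.5 and 86.7 in deleted stroma. Its log2 fold change was 0.66 ± 0.28 (95% interval 0.03 to 1.28). Calcoco1 is also a neighbour of Amhr2, within 2 Mb of the gene that carries Cre, as are Igfbp6 and Cela1. The exception on the lower side was Sqstm1, the cargo receptor p62, at 906 and 889 against 884 and 794 CPM, a log2 fold change of -0.10 ± 0.17. Sqstm1 is named after its values were seen.

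The neighbours of Amhr2 were counted as a list of their own. Of 59 tested, 0 passed, 9 were higher in both deleted libraries and 5 lower, with a median of -0.03. Cela1, an elastase-family protease, had 20 and 17 reads in control and 53 and 58 in deleted stroma, a log2 fold change of 1.50 ± 0.34. Igfbp6, which binds insulin-like growth factor 2, stood at 33.1 and 35.8 against 59.7 and 69.5 CPM, a log2 fold change of 0.91 ± 0.34. The shares stayed near the backgrounds of 12.9% and 11.6%. Of 43 neighbours of Atg7, 6 were higher and 2 lower, with a median of -0.05. Both medians turned, to 0.082 near Amhr2 and 0.10 near Atg7, without control oil library 1.

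Lysosome and oxidative stress genes had medians near 0 whose sign rested on single libraries. Of 34 lysosome genes 4 were higher in both deleted libraries (11.8%) and 0 lower, with a median of 0.03. Over all genes the shares were 12.9% and 11.6%. Of 30 targets of NRF2, the transcription factor that p62 can release, 3 were higher and 3 lower, with a median of -0.06, and 0 passed in either list. The NRF2 median was 0.25 without control oil library 1 and -0.29 without control oil library 2, and the lysosome median 0.15 and -0.084. Fth1, the ferritin heavy chain, stood at 798 and 863 CPM in control and 1001 and 1216 in deleted stroma, a log2 fold change of 0.42 ± 0.18. Hmox1, heme oxygenase 1, was on the other side at 205 and 244 against 171 and 159 CPM, a log2 fold change of -0.44 ± 0.22. Gstm1, a glutathione transferase, stood at 358 and 357 against 433 and 446 CPM. The libraries of each of the 3 genes kept apart by genotype, with Hmox1 opposite to the other two.

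Among secreted signals, Wnt and retinoid genes leaned higher. Of 34 tested, 0 passed, 10 were higher in both deleted libraries (29.4%) and 3 lower (8.82%), beside 12.9% and 11.6% of all genes. The median log2 fold change was 0.16, and 0.080 without deleted oil library 2. Sfrp4, a secreted Wnt inhibitor, stood at 4.42 and 8.50 CPM in control and 16.3 and 13.4 in deleted stroma, a log2 fold change of 1.21 ± 0.43. Rspo1, which strengthens Wnt signals, stood at 12.5 and 23.4 against 27.3 and 38.0 CPM, and Frzb, another secreted inhibitor, at 19.9 and 15.9 against 26.9 and 27.4. On the lower side were Cyp26b1 and the epithelial ligands Wnt7a, at 11.2 and 7.44 against 6.16 and 1.89 CPM, and Wnt6, at 12 and 6.73 against 6.01 and 4.88. Wnt6 was named after its values were seen.

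Of 37 cytokine and chemokine genes 6 were higher (16.2%) and 2 lower (5.41%), beside 12.9% and 11.6% of all genes, and 0 passed. Their median of 0.10 was 0.42 without control oil library 2 and 0.019 without deleted oil library 2. Cxcl14, a chemokine of stroma and epithelium, stood at 35.5 and 28.7 CPM in control and 56.6 and 57.7 in deleted stroma, a log2 fold change of 0.83 ± 0.31. Csf3, the growth factor of granulocytes, stood at 17 and 7.97 against 7.11 and 5.36 CPM, a log2 fold change of -1.01 ± 0.41. Of 15 steroid receptors and coregulators 2 were higher and 1 lower. Pgr, the progesterone receptor, stood at 194 and 200 against 220.2 and 277 CPM, a log2 fold change of 0.34 ± 0.19. Of 28 estrogen targets, 3 were higher and 2 lower, and of 26 genes of the progesterone and decidual program 4 were higher and 2 lower. These shares were near the backgrounds. Lcn2, lipocalin 2, an estrogen target of epithelium, stood at 8.83 and 4.60 against 3.48 and 2.52 CPM, a log2 fold change of -1.17 ± 0.36.

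Immediate early genes, which cells switch on within minutes of a stimulus, leaned lower. Of 35 tested, 0 passed, 2 were higher in both deleted libraries (5.71%) and 8 lower (22.9%), against 12.9% and 11.6% of all genes. The median log2 fold change was -0.23. The median stayed between -0.26 and -0.16 when 1 oil library was left out. Egr1, a zinc finger factor of this class, stood at 2934 and 2636 CPM in control and 1786 and 1711 in deleted stroma, a log2 fold change of -0.67 ± 0.26 (95% interval -1.26 to -0.08). Dusp6, a phosphatase that switches off ERK, stood at 165 and 175 against 134 and 132 CPM, a log2 fold change of -0.35 ± 0.16. Btg2, an antiproliferative factor, was lower by a log2 fold change of -0.31 ± 0.17. Fos, a leading member of the class named after its values were seen, overlapped, at 936 and 2917 against 1045 and 1619 CPM.

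The direction of the heat shock list rested on 1 library. Of 21 tested, 0 passed, 1 was higher in both deleted libraries (4.76%) and 3 lower (14.3%), against 12.9% and 11.6% of all genes. The median of -0.24 turned to 0.07 without control oil library 1. Hspa1a, an inducible chaperone of the HSP70 family, stood at 3177 and 2723 CPM in control and 2081 and 2064 in deleted stroma, a log2 fold change of -0.51 ± 0.25. Hspa1b, its near-identical neighbour, stood at 2286 and 1789 against 1384 and 1354 CPM, a log2 fold change of -0.57 ± 0.22. Both genes were lower in both deleted libraries, but reads of the copies cannot be assigned with certainty, so they count as 1 observation. The promoter windows, again from 115 to 16 bases upstream, are shown because the copies share them. Hspa1a lies at chr17:34972172-34972271 and Hspa1b at chr17:34959254-34959353, both on the minus strand of GRCm38.p6 (RefSeq). Capitals mark an inverted pair of heat shock element units, GAANNTTC, searched on both strands.
Hspa1a: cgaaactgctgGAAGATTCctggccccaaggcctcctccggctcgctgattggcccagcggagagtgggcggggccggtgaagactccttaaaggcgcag
Hspa1b: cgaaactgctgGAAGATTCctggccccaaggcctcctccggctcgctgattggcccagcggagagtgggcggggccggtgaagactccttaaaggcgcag
All 100 bases are identical, and 296 of 300 over the whole window from the promoter table. The letters begin 104 bases upstream in each and occur in 2.52% of the 32851 windows.

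Of 29 genes of the unfolded protein response 0 were higher in both deleted libraries and 5 lower (17.2%), beside 12.9% and 11.6% of all genes. Their median of -0.21 turned to 0.07 without control oil library 1. Chac1, a glutathione-degrading enzyme of the ATF4 arm, stood at 36.8 and 20.7 CPM in control and 20.1 and 17.6 in deleted stroma, a log2 fold change of -0.61 ± 0.31. Asns, asparagine synthetase of the same arm, stood at 15.3 and 11.2 against 9.64 and 9.14 CPM. Epithelium markers, too, turned without that library. Of 26 tested, 0 were higher and 4 lower (15.4%). The median of -0.56 became 0.27 without control oil library 1 and -1.10 without deleted oil library 1. Elf3, an epithelial transcription factor, stood at 35.5 and 22.5 against 22.3 and 15.8 CPM, a log2 fold change of -0.61 ± 0.28. Whether the heat shock and unfolded protein lists move with epithelial RNA was not tested, although library 1 was above library 2 in the medians of all 3 lists, by 0.35 for heat shock and 0.35 for the unfolded protein response in control oil.

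Smooth muscle markers had a median of 0.47, with 2 of 16 higher and 0 lower, and the median was 0.034 without control oil library 1 and 1.13 without control oil library 2. Myocd, the coactivator of the muscle program, stood at 4.57 and 9.03 CPM in control and 14.7 and 12 in deleted stroma, a log2 fold change of 0.98 ± 0.38. Mylk, the kinase of myosin light chain, stood at 822 and 1395 against 1468 and 1938 CPM, but Acta2 overlapped. Of 22 endothelium markers 0 were higher and 2 lower, with a median of -0.01 that was -0.26 without control oil library 1 and 0.39 without control oil library 2. Of 29 oxidative phosphorylation genes 7 were higher (24.1%) and 3 lower (10.3%), with a median of 0.11, against 12.9% and 11.6% of all genes. Of 27 sterol and fatty acid genes 4 were higher and 4 lower, and of 26 glycolysis and hypoxia genes 2 were higher and 4 lower. Of 33 interferon response genes 4 were higher and 3 lower, with a median of 0.15 that was -0.09 without control oil library 1 and -0.10 without deleted oil library 2.

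**Figure D4:**
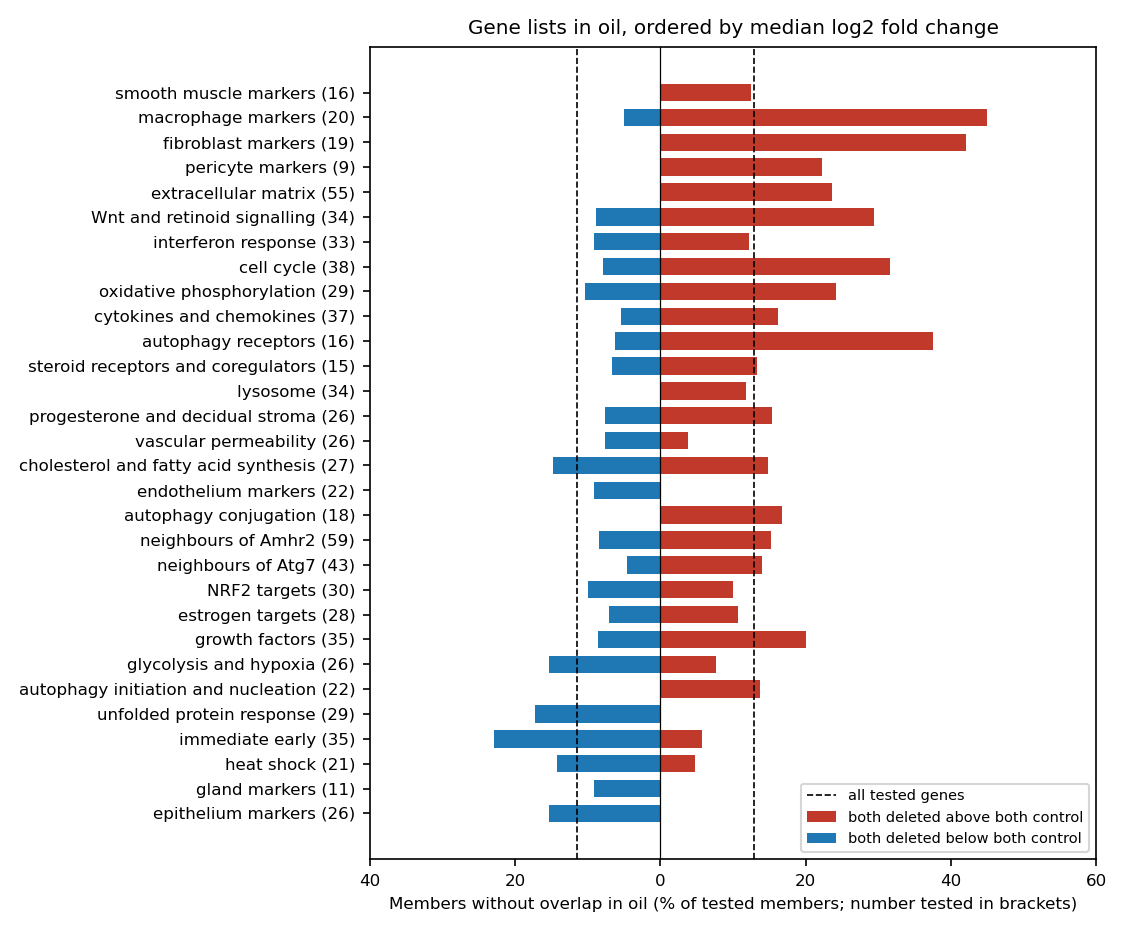
Share of tested members of each gene list with at least 9 tested members (number tested in brackets) whose 2 deleted oil libraries lay above (red, right) or below (blue, left) both control oil libraries, ordered by median log2 fold change. Dashed lines give the shares over all 13347 tested genes, 12.9% and 11.6%. Among the lists drawn, macrophage and fibroblast markers reach furthest to the right and immediate early genes furthest to the left.

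The estradiol groups share no library with the oil groups and allow the 24 genes of smallest p to be read again. Of the 12 higher genes 9 had a positive fold change after estradiol and 6 were higher in both deleted libraries, and the median log2 fold change went from 0.95 in oil to 0.35. Of the 12 lower genes 10 had a negative one and 6 were lower in both deleted libraries, with a median of -0.22 against -0.74. Over all tested genes 16% were higher and 18.2% lower in both deleted libraries after estradiol. Of the 1727 genes separated higher in oil, 386 were also separated higher after estradiol. Of the 1542 separated lower in oil, 381 were also separated lower. The 24 genes were chosen by p in oil, a choice that favours large values there. That p used the spread of all 8 libraries, so the choice also favours genes whose estradiol libraries of a genotype lie close together. The counts without overlap after estradiol are thus not a fully separate check. Among all genes separated in oil, 59.6% of the higher and 62.5% of the lower kept their sign. Edn1 kept its size: it stood at 151 and 143 CPM in control and 92.8 and 88.0 in deleted stroma after estradiol, a log2 fold change of -0.70 ± 0.25. Plaur, at -0.71 ± 0.28, and Apod, at 1.05 ± 0.46, also kept theirs. Selm did not, at -0.04 ± 0.22, and Cep78 stood on the other side, at 0.50 ± 0.34.

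For some list members the fitted value was larger after estradiol than in oil, with no difference past the test. Clec3b stood at 10.2 and 5.99 CPM in control and 38.3 and 17.3 in deleted stroma, a log2 fold change of 1.77 ± 0.38 beside 0.96 ± 0.34 in oil, though the difference of 0.81 ± 0.50 had an unadjusted p of 0.142 in edgeR. Gstm1 stood at 124 and 113 against 201 and 208 CPM, a log2 fold change of 0.79 ± 0.16 beside 0.30 ± 0.15 in oil, a difference of 0.49 ± 0.22. Csf3 had a log2 fold change of -1.68 ± 0.44 after estradiol, a difference of -0.68 ± 0.60 from oil. Hspa1b had one of -0.81 ± 0.22, a difference of -0.24 ± 0.32. Lyz2 stood on the other side, at 19.8 and 14.9 against 56.7 and 29.4 CPM, a log2 fold change of 1.30 ± 0.34. Of the macrophage markers 10 were higher after estradiol and 0 lower, beside 16% and 18.2% of all genes, and 5 of the 20 were higher in both treatments. Of the fibroblast markers 5 of 19 were higher in both treatments. Over all tested genes 386 of 13347 were. For the deletion after estradiol, too, edgeR and DESeq2 called 0 genes, with 403 and 277 at an unadjusted p below 0.05.

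**Figure D5:**
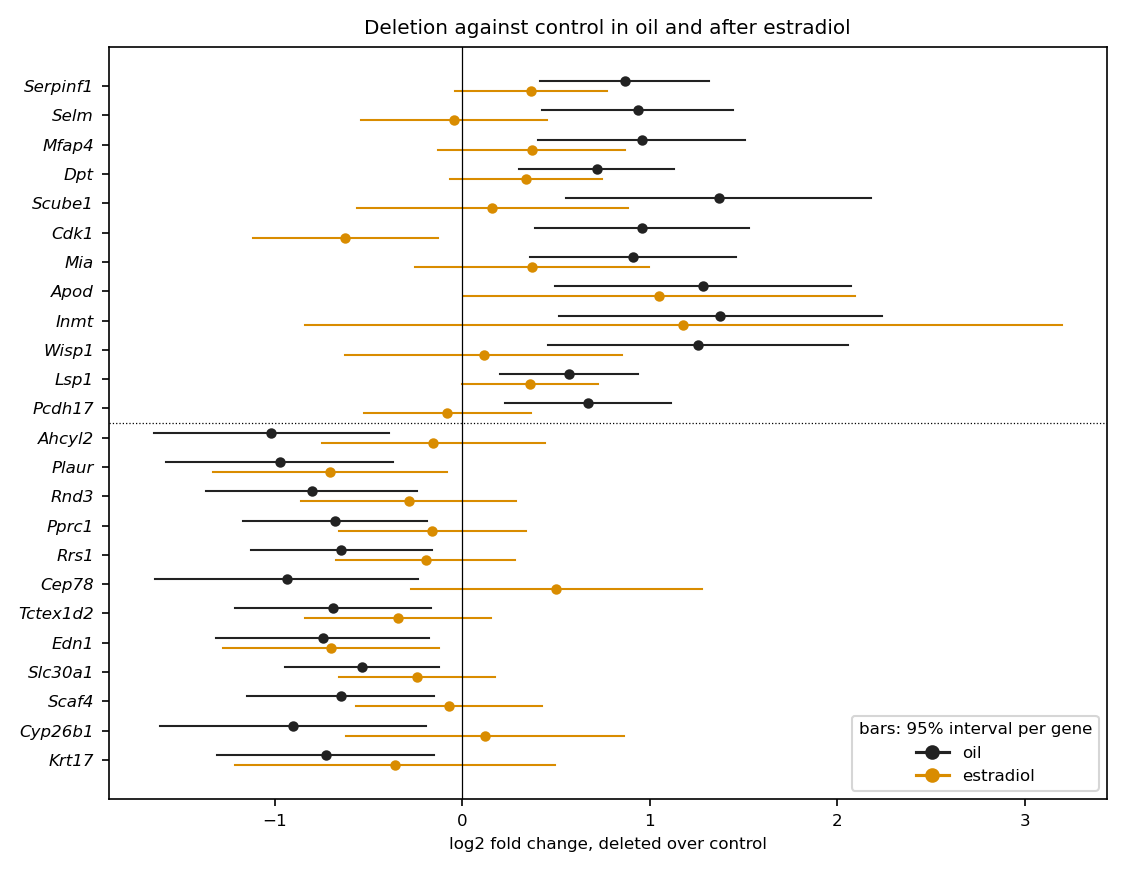
Log2 fold change of deleted over control in oil (black) and after estradiol (orange) for the 24 genes of smallest unadjusted p in oil, with unadjusted 95% intervals per gene. Oil intervals lie off 0 because the genes were chosen by p in oil, and 5 genes have estimates on opposite sides of 0 in the 2 treatments: Cdk1, Cep78, Selm, Pcdh17 and Cyp26b1.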

How the data were processed

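RNA was extracted with Trizol and made into QuantSeq libraries, a 3′-end kit, per the labels' protocols. The authors deposited 1 file of raw read counts per gene symbol for each library, a unit read from the values. Bowtie2, edgeR and mm10 appear in the submitters' processing notes, without versions. The read counter and gene models used were not given in the sources used here. Each file had 23282 lines for 23238 symbols. Of the lines of 35 repeated symbols, the one with the most reads in all was used.

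Genes passing edgeR's filterByExpr (minimum count 10, minimum total count 15) numbered 13347 and held 99.9% of counts. Quasi-likelihood tests (edgeR 4.0.16 in R 4.3.3) used 1 model with a mean for each of 4 groups and TMM factors (0.918 to 1.03), with Benjamini-Hochberg adjustment over all tested genes. The model had 4 residual and 5.08 prior degrees of freedom, and a biological coefficient of variation of 21.8%. Standard errors and unadjusted 95% intervals were derived from fold change and test statistic. Ratios between libraries of a group used a prior count of 2. DESeq2 1.42.0, other scalings, filters and sample sets were alternatives. The scripts were tested on simulated data.

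Named are Atg7, Amhr2, per side the 12 genes with the smallest p, a mean of at least 10 CPM in oil and no overlap, per list the 4 members with the smallest p, the 3 most abundant of each marker list, and the 8 genes of at least 50 CPM most different between the libraries of a genotype. Predicted genes, pseudogenes of ribosomal proteins and mitochondrial transcripts were skipped. The members and the lists, of 815 genes with 718 tested, were chosen with earlier results of these data known. GENCODE M21, of the same build, gave coordinates for 22197 symbols. Promoter sequences came from RefSeq (GRCm38.p6), where the other class II genes named had no entry.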

Additional observations from a re-analysis of the deposited data

How the results depend on the processing

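Under 16 alternative settings (library totals, relative log expression, DESeq2, no low count filter, at least 40 reads in oil, oil libraries alone, replicate block, summed lines, and each of 8 libraries left out) the count of genes past the threshold was 0 to 0 in oil, and likewise after estradiol and for the difference, where oil libraries alone could not be used. The smallest adjusted p was 0.110 in oil, without control oil library 2, and 0.0605 after estradiol, with DESeq2. With the replicate block 0 genes were called in oil, and 397 had an unadjusted p below 0.05, against 339 without it. The ratio of library 1 to 2 correlated over genes at 0.494 between the oil groups and 0.230 between the estradiol groups. The correlation was -0.231 between the control groups, so equal numbers were not taken to pair samples across treatments. The block was shared by both treatments, so pairing by number within oil alone was not tested. Of 1390 pairs of named gene and setting, 1385 kept the sign. Many of these genes were chosen because their genotypes did not overlap in oil. For those, leaving out 1 library could hardly turn the sign, so the count is no measure of how firm the values are. The exceptions were Atg7, at 0.26 without control oil library 2 and 0.19 without deleted oil library 1, and, without control oil library 1, H2-Eb1 at 0.067, Cdh1 at 0.67 and Cldn4 at 0.41. Over the libraries left out, Atg7 ran from -0.45 to 0.26, H2-Eb1 from -0.67 to 0.067, Cdh1 from -1.63 to 0.67 and Cldn4 from -1.32 to 0.41. The cause was not tested. Genes over 2-fold apart within a genotype numbered 875 in control and 289 in deleted oil at a mean of at least 10 CPM, where fewer genes were counted. With 2 libraries per group and a median standard error of 0.29, differences under 2-fold were not detectable for most genes. Fitted differences over 2-fold did not pass either, such as Scube1 at 1.37 ± 0.36 and Inmt at 1.38 ± 0.38 on the log2 scale in oil.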

Other observations

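Smaller lists and those without a lean complete the picture of the oil libraries, with 0 members past the edgeR test in each. Their counts stand beside 12.9% higher and 11.6% lower over all genes. Of 35 growth factor genes 7 were higher in both deleted libraries and 3 lower, with a median log2 fold change of -0.06 that was 0.19 without control oil library 2. Bmp2, a ligand that takes part in decidualization, stood at 57.0 and 54.0 CPM in control and 79.7 and 69.8 in deleted stroma, a log2 fold change of 0.43 ± 0.22, and at 0.51 after estradiol. Of 26 vascular permeability genes 1 was higher and 2 lower. The 4 tested lymphocyte and NK markers had a median of 0.72, with 2 higher and 0 lower, and summed to 100.3 and 60.4 CPM in control and 151 and 115 in deleted stroma. Leaving out 1 oil library kept that median between 0.68 and 0.91. Of 6 granulocyte markers 0 were higher and 2 lower, at sums of 7.57, 14.2, 10.3 and 7.88 CPM over the 4 libraries. Gland markers, 0 higher and 1 lower of 11, had a median of -0.29 that was 0.12 without control oil library 1. Padi1, which converts arginine to citrulline in proteins, stood at 62.8 and 34.9 against 32.7 and 26.0 CPM, a log2 fold change of -0.74 ± 0.32.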
